A study of Mus musculus with 8 samples.

Results

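The genes described here encode 7 components of the complement system: the C1q chains C1qa, C1qb and C1qc, the central components C3 and C4b, and the receptors C3ar1 and C5ar1. They were taken by symbol from the 32285 genes of the count matrices, and every one of the 7 was present. Their counts were read in single nuclei of the striatum of 8 inbred mouse strains in which RNA and open chromatin had been profiled together. The wild-derived strains were WSB/EiJ, CAST/EiJ and PWK/PhJ, the classical laboratory strains were NZO/HlLtJ, A/J, NOD/ShiLtJ, C57BL/6 and 129S1/SvImJ, and C57BL/6 is given as C57BL/6J in the design text and as C57BL/6NJ in the deposited table of nuclei. The labels give no treatment and no engineered allele, and all mice were 12 weeks old. Each of 4 batches pooled 1 mouse of every strain, male and female, so that each strain had 4 mice, its replicates, and 32 mice were compared in all. The sex of a single mouse was not used here, so strain and sex within a batch cannot be told apart.

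The authors' annotation placed 55672 nuclei in 18 clusters, of which macrophages held 2638 nuclei, astrocytes 4748, oligodendrocytes 12066 and ependyma 346. Summed counts of a mouse ranged from 27325 to 365425 unique molecular identifiers (UMIs, each 1 counted RNA molecule) in macrophages, from 38252 to 1085998 in astrocytes and from 165465 to 1883033 in oligodendrocytes. Levels below are counts per 1000000 UMIs of the same nuclei (CPM). Among annotated nuclei, 1517 barcode sequences occurred in more than 1 batch, and 12.6% of the pairs of nuclei that shared one also shared the strain. All 8 markers of macrophages or microglia were highest in the macrophage cluster, among them P2ry12 at 1521 CPM and Tmem119 at 275.3 CPM. Markers of border-associated macrophages, which line vessels and meninges, were also present there, with Mrc1 at 54.4 CPM and Lyve1 at 3.26 CPM as 2 of the 4 that were highest there. The fifth, Cd163, was highest in Drd2+ neurons at 10.8 CPM and Drd1+ neurons at 10.7 CPM. The level of the 5 summed in macrophages ranged from 42.6 CPM in A/J to 318.6 CPM in NZO/HlLtJ. A single marker of each of 2 other types stood apart by strain in the macrophage libraries, Slc1a3 of the astrocyte list and Pecam1 of the endothelium list. The 5 astrocyte markers summed to 4860 CPM in 129S1/SvImJ against 664.9 to 1073 CPM in the other strains, of which Slc1a3 alone gave 4288 CPM against 178.7 to 425.9 CPM, while Aqp4, Slc1a2 and Aldh1l1 in 129S1/SvImJ were within the range of the other strains' means and Gfap, at 12.7 CPM, was just below it. The 3 endothelium markers summed to 334.4 CPM in CAST/EiJ, 183.6 CPM in NZO/HlLtJ and 154.8 CPM in PWK/PhJ against 37.7 to 47.4 CPM elsewhere, of which Pecam1 gave 314.7, 157.4 and 140.8 CPM. Flt1 in these 3 strains was within the range of the other strains' means, 2.45 to 17.6 CPM, and Cldn5 was within it in CAST/EiJ, at 16.5 CPM, and just below it in NZO/HlLtJ and PWK/PhJ, at 10.8 and 8.06 CPM. In the clusters these 2 genes mark, over all strains, Slc1a3 stood at 1974 CPM in astrocytes and Pecam1 at 397.5 CPM in endothelium. Macrophage nuclei of batch 3 had the lowest median depth of the 4 batches, 1100 UMIs against 1468.5 to 1539 UMIs.

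Complement is a cascade of blood and tissue proteins that tags surfaces for removal by phagocytes. C1q, a hexamer of units that each hold a C1qa, a C1qb and a C1qc chain, recognises targets and starts the classical pathway, in which C4 and then C3 are cleaved and bound to the surface. The small fragments C3a and C5a released on the way signal through C3ar1 and C5ar1. In brain, microglia are the main source of C1q, and C1q and C3 are known for marking synapses that microglia engulf during development, while C4b is made by glia.

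On the GRCm38 build, RefSeq places C1qa at chr4:136895916-136898844, C1qc at chr4:136889801-136892936 and C1qb at chr4:136880126-136886200, next to each other. C4b lies at chr17:34728139-34743902 in the region of the major histocompatibility complex and C3 at chr17:57203967-57228136, while C3ar1 lies at chr6:122847140-122856157 and C5ar1 at chr7:16246743-16259540. The authors' index of 291715 open-chromatin regions, each 1000 bases wide, held a region over the upper-coordinate end of 5 of these 7 genes, namely C1qa, C1qb, C4b, C3ar1 and C5ar1. For C1qc the nearest region, chr4:136893120-136894119, covered part of the window before its start and none of the gene. C3 had 2 regions inside the gene and none at its start. The index carries no value per sample, so openness was not compared between strains.

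The RefSeq promoter table held 5 of the 7 genes. Printed below, to show the DNA next to the starts of genes that were highest in macrophages, are the 250 bases before the start of C1qb at chr4:136886201-136886450, of C1qc at chr4:136892915-136893164 and of C3ar1 at chr6:122856158-122856407, all on the minus strand of GRCm38.p6 and written 5′ to 3′. Capitals mark the motif AGGAAG or its reverse complement CTTCCT, letters that hold the GGAA core recognised by ETS factors, a family that includes the macrophage factor PU.1. The last 22 bases of the C1qc window lie inside the annotated gene.
C1qb: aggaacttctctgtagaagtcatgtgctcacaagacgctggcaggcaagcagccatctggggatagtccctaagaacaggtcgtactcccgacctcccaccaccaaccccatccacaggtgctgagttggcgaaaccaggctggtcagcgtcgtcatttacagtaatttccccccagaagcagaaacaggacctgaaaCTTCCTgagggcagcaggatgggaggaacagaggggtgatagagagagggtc
C1qc: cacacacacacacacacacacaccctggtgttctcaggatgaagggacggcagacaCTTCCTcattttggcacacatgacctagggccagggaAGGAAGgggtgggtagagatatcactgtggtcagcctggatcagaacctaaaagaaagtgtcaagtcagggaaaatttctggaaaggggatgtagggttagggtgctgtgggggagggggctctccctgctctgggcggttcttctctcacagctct
C3ar1: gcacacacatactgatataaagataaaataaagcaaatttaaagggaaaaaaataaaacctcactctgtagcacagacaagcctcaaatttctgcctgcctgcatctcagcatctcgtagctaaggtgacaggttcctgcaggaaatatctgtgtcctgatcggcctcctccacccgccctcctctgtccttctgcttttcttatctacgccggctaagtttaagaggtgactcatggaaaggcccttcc
C1qb had 1 match and C1qc had 2, while C3ar1 and C3 had 0. The C5ar1 window, chr7:16259339-16259588, of which 202 bases lie inside the annotated gene, had 3 matches, a pair of them overlapping. Of 32851 promoters in the table, 29.48% held a match and 6.25% held 2 or more. The windows come from the reference mouse genome, and those of the other strains were not read.

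The C1q chains were highest in macrophages by a wide margin. C1qa stood at 1400 CPM of the summed macrophage counts, with 5583 counts, and the next cluster, an unnamed one, had 19.8 CPM. C1qb stood at 856.4 CPM and C1qc at 706.5 CPM, with 11.9 CPM in endothelium and 10.6 CPM in the unnamed cluster as the next highest. For each chain, the lowest macrophage value of a mouse was above the highest value of a mouse in that next cluster. Over the 32 mice the macrophage levels were 1489 ± 883 CPM for C1qa, 920.5 ± 464 CPM for C1qb and 749.3 ± 370 CPM for C1qc (mean ± SD, n = 32). A UMI of C1qa was present in 69.07% of macrophage nuclei, of C1qb in 56.07% and of C1qc in 52.96%.

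Outside macrophages the C1q chains were low, with C1qa between 3.11 CPM in Chat+ interneurons and 19.8 CPM in the unnamed cluster. The 3 chains together had 4125 counts in all other clusters, or 16.2 CPM, against 2963 CPM in macrophages. By strain the level summed over these clusters was between 15.4 CPM in NZO/HlLtJ and 17.0 CPM in CAST/EiJ. In Drd1+ neurons, the striatal projection neurons that carry the D1 dopamine receptor and are not known to make C1q, 3.53% of nuclei had a C1qa UMI at a median depth of 6505 UMIs, against 69.07% at a median of 1432 UMIs in macrophages. Shares in oligodendrocytes, 2.88%, and astrocytes, 3.47%, were no higher than in those neurons, at medians of 1640 and 2220 UMIs. With every nucleus thinned to 500 UMIs the C1qa shares were 42.11% in macrophages, 0.908% in oligodendrocytes, 0.907% in astrocytes and 0.338% in Drd1+ neurons. The part of free RNA in the counts outside macrophages was not tested.

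Both receptors were also highest in macrophages, at much lower counts. For each, the range over mice overlapped that of the next cluster, with a lowest macrophage value of 0 CPM. C3ar1, the C3a receptor, had 196 of its 307 counts there and stood at 49.1 CPM, with 2.28 CPM in mural cells as the next highest from 3 counts. C5ar1, the C5a receptor, had 102 of its 119 counts there, or 85.7%, stood at 25.6 CPM and was at 0 counts in 12 of the 18 clusters. A UMI of C3ar1 was present in 6.44% of macrophage nuclei and one of C5ar1 in 3.37%. For comparison, 0.260% and 0.0520% of Drd1+ neuron nuclei had one, at more than 4 times the median depth.

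C4b, a form of C4 and the substrate of the activated C1 complex, was highest in astrocytes at 102.7 CPM, with 1152 of its 2172 counts. Fibroblasts followed at 27.6 CPM from 7 counts, ependyma at 20.9 CPM from 25 counts, oligodendrocytes at 16.6 CPM from 353 counts and macrophages at 10.5 CPM from 42 counts. A C4b UMI was present in 16.3% of astrocyte nuclei, in 2.60% of oligodendrocyte nuclei and in 1.48% of the deeper nuclei of Drd1+ neurons, and after thinning to 500 UMIs in 4.811%, 0.800% and 0.117%. C3, on which all complement pathways converge, was highest in ependyma, the ciliated lining of the ventricles, at 52.5 CPM from 63 of its 126 counts. Macrophages came next at 1.50 CPM from 6 counts, astrocytes had 1.43 CPM, and 10 of the 18 clusters had no C3 count. The ranges over mice of ependyma and macrophages overlapped for C3. Those of astrocytes and fibroblasts overlapped for C4b, with 2 mice of at least 10 fibroblast nuclei.

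**Figure D1:**
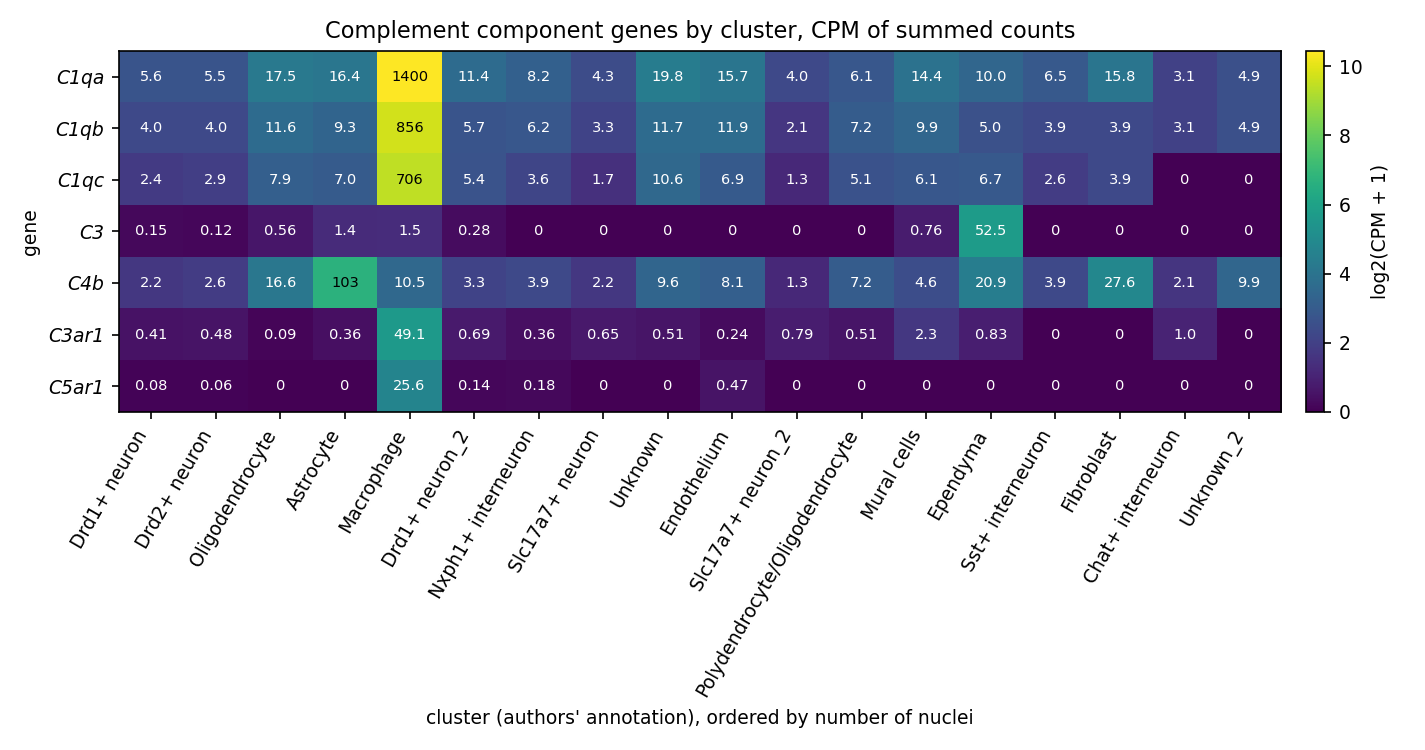
Levels of the 7 complement genes (rows) in the 18 clusters of the authors' annotation (columns, ordered by number of nuclei); cells give the CPM of summed counts and colour gives log2(CPM + 1). The 3 C1q chains and both receptors peak in macrophages (1400, 856.4, 706.5, 49.1 and 25.6 CPM), C4b in astrocytes (102.7 CPM) and C3 in ependyma (52.5 CPM).

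Genes whose level followed that of each member were sought over the 18 clusters among 13158 genes, by Pearson's r of log2(CPM + 1), as a description. C1qa was most like Siglech (r = 0.98), a microglial lectin receptor, and Ly86, while C1qb was most like Cd86 and Fcrls, and C1qc most like Fcer1g, the shared chain of Fc receptors. C3ar1 was most like I830077J02Rik and the RNA sensor Tlr7, and C5ar1 like Naip6, Ms4a6d and Ms4a6b, all highest in macrophages. C4b was most like the antioxidant enzyme Prdx6 (r = 0.98) and the lipid carrier Apoe (r = 0.96), which were highest in astrocytes. C3 was most like Cdhr4 (r = 0.98), which stood at 301.9 CPM in ependyma. Across the 32 macrophage libraries and 2636 genes, C1qa was most like the lysosomal genes Ctsd (r = 0.92) and Ctss (r = 0.89), C1qb like Selplg (r = 0.81) and Fcer1g, and C1qc like C1qb (r = 0.75). The libraries share batches and differ in depth, so these values carry no test.

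Strains differed in macrophage C1qb and C1qc. Counts were summed per mouse and cluster and tested with edgeR's quasi-likelihood test of the strain term, with batch in the model and Benjamini-Hochberg adjustment over all genes tested. Of 3858 genes tested in macrophages, 24.8% were called at an adjusted p under 0.05, and 2 of the 3 members that passed the low-count filter were called. C1qc had an adjusted p of 0.00588 (F = 5.12), C1qb one of 0.0465 (F = 3.53) and C1qa one of 0.100 (F = 2.84). Mean C1qa levels ran from 1064 ± 274 CPM in A/J to 2068 ± 1272 CPM in WSB/EiJ (SD, n = 4), and the mice of these strains overlapped.

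C1qb was lowest in A/J. The 4 A/J mice had 530.4, 427.7, 563.5 and 471.8 CPM in batches 1 to 4, a mean of 498.4 ± 60.5 CPM (SD, n = 4), while WSB/EiJ had 935.6, 699.2, 2359 and 1348 CPM. No WSB/EiJ mouse was as low as any A/J mouse, although the A/J values overlapped those of other strains, since 1 NOD/ShiLtJ mouse had 232.9 CPM. Against the mean of the other 7 strains A/J was lower by edgeR, with a log2 difference of -0.87 (SE 0.22) and an adjusted p of 0.0173, where 2.54% of genes were called lower in A/J. This contrast was lost in 3 of 9 alternatives, with an adjusted p of up to 0.244. In this fit no other contrast of 1 strain with the other 7 was called for a C1q chain in macrophages. Of the 24 such contrasts, 8 were called without the low-count filter and 7 without batch 3, where 1.55% and 5.75% of the contrasts of all genes were called. C1qc had its highest mean in C57BL/6, where the mice had 782.9, 794.5, 1564 and 936.8 CPM, and its lowest in A/J, where they had 522.7, 391.9, 719.0 and 428.9 CPM. All 4 C57BL/6 mice were above all 4 A/J mice. The contrast of C57BL/6 was 0.56 on the log2 scale (SE 0.18) with an edgeR adjusted p of 0.0660, and that of A/J was -0.53 (SE 0.19) with an adjusted p of 0.109. The summed macrophage or microglia markers had their lowest mean in A/J, 10080 CPM (8398 to 11380). Their highest was in WSB/EiJ, 12370 CPM (10110 to 15250). C57BL/6, with the highest mean of C1qc, came close to A/J in these markers, at 10140 CPM (8281 to 12580). The part of these markers in the C1q levels was not tested.

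Batch 3 stood apart for all 3 chains. Its mean over 8 mice was 2621 CPM for C1qa against 964.3, 1012 and 1370 CPM in batches 1, 2 and 4, and it was also highest for C1qb (1451 CPM against 621.2 to 946.8) and C1qc (1190 CPM against 533.1 to 714.4). The part of the lower depth of batch 3 in these levels was not tested. The calls depended on the batch term: without it the edgeR adjusted p was 0.503 for C1qb and 0.445 for C1qc. They also depended on single batches, since without batch 2 the adjusted p was 0.196 for C1qb and 0.131 for C1qc, and without batch 4 it was 0.413 for C1qb, whereas C1qa was called without batch 3 at 0.00698. With nuclei of at least 1000 UMIs C1qb was lost, with an edgeR adjusted p of 0.0763. C1qa was called without the low-count filter (adjusted p = 7.22e-06) and by DESeq2 (adjusted p = 0.0387).

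**Figure D2:**
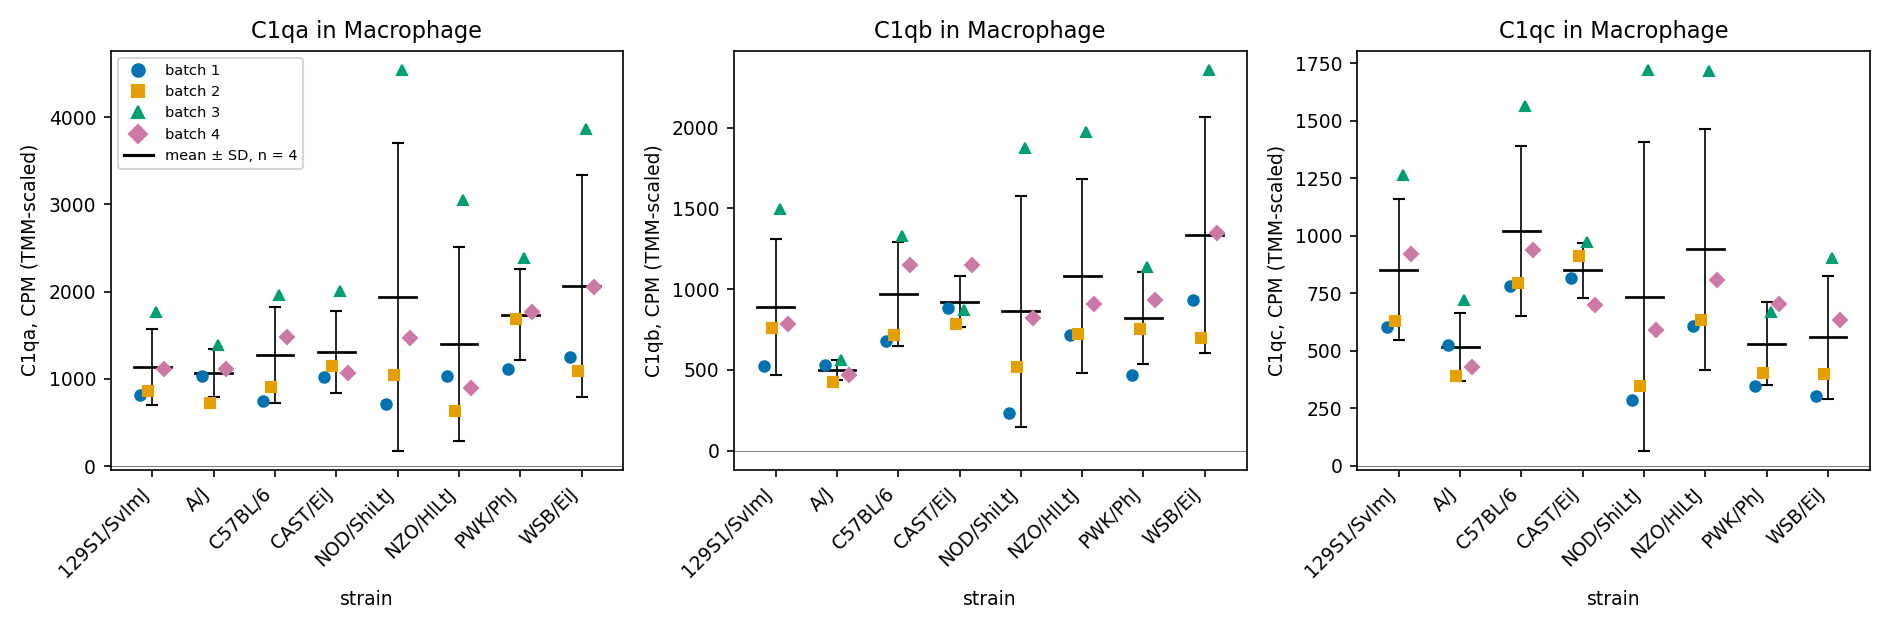
Levels of C1qa, C1qb and C1qc in macrophages (vertical axes, TMM-scaled CPM) by strain; points are mice with a symbol per batch, and bars are the mean ± SD of 4 mice. Batch 3 mice are mostly highest in their strain, and the A/J mice of C1qb lie between 427.7 and 563.5 CPM.

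The proportion of the counts of the 3 chains to each other also differed between strains. All strains were counted on the same reference genome, and the part of strain variants in these proportions was not tested. The ratio of 2 chains was taken within each macrophage library, which cancels its depth and scaling, and was tested by permuting strains within batches (100000 resamples of an F statistic, which has no direction, adjusted over the 3 ratios). This comparison was chosen after the values of the chains had been seen. For C1qc over C1qa the permutation p was 1e-05, the smallest these resamples can give, with an adjusted p of 3e-05. The C57BL/6 mice had ratios of 1.04, 0.879, 0.799 and 0.634, and the WSB/EiJ mice had 0.234 to 0.365, so that these strains did not overlap. Geometric means of 4 mice were 0.826 in C57BL/6, 0.751 in 129S1/SvImJ, 0.740 in NZO/HlLtJ and 0.672 in CAST/EiJ. They were 0.485 in A/J, 0.380 in NOD/ShiLtJ, 0.304 in PWK/PhJ and 0.283 in WSB/EiJ. The 4 mice of 129S1/SvImJ, at 0.716 to 0.826, were all above those of A/J, NOD/ShiLtJ, PWK/PhJ and WSB/EiJ.

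C1qb over C1qa gave an adjusted permutation p of 0.00032, with geometric means from 0.444 in NOD/ShiLtJ, 0.468 in PWK/PhJ and 0.480 in A/J to 0.849 in NZO/HlLtJ. C1qc over C1qb gave the same adjusted permutation p, 0.00032, and here WSB/EiJ (0.428, range 0.324 to 0.571) and PWK/PhJ (0.648) were lowest, while C57BL/6 had 1.05 and A/J 1.01. NOD/ShiLtJ, PWK/PhJ and A/J were thus the 3 lowest in C1qb over C1qa and also among the 4 lowest in C1qc over C1qa. WSB/EiJ had the lowest geometric mean of C1qc relative to each of the other chains. Over the alternatives run, including each batch left out, the highest adjusted p of these 3 ratios was 0.0129.

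The low counts of C1q in all other clusters did not show the same order of strains. There C1qc over C1qa was 0.528 in WSB/EiJ, against 0.277 in the pooled macrophages of that strain, and 0.363 in 129S1/SvImJ against 0.754. All 8 strains of a batch shared 1 pool of nuclei.

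**Figure D3:**
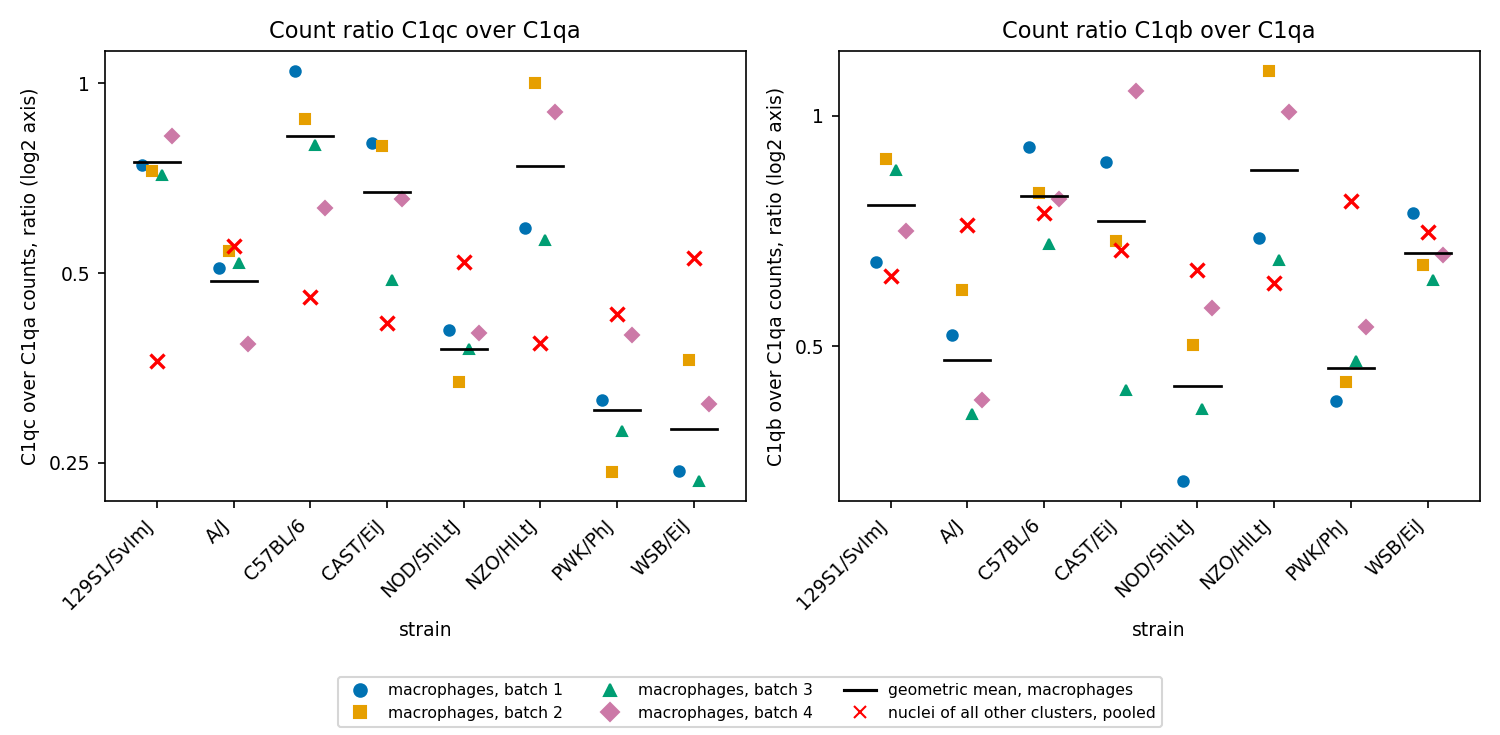
Count ratios of C1qc over C1qa and C1qb over C1qa (vertical log2 axes) by strain; points are macrophage libraries of single mice, black bars their geometric mean, and red crosses the ratio in the pooled nuclei of all other clusters of that strain. C1qc over C1qa runs from a geometric mean of 0.826 in C57BL/6 to 0.283 in WSB/EiJ in macrophages, while the crosses run from 0.363 to 0.552.

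The receptors had too few counts for the filter in macrophages and are given first as counts. C3ar1 had 4 counts in CAST/EiJ and 5 in PWK/PhJ over all 4 mice of each, against 45 in NOD/ShiLtJ, 40 in C57BL/6, 33 in 129S1/SvImJ, 28 in A/J, 24 in NZO/HlLtJ and 17 in WSB/EiJ. Libraries differ in depth, and per UMI the order of the last strains was another, with means of 36.3 CPM in A/J, 37.0 CPM in WSB/EiJ and 62.0 CPM in NZO/HlLtJ. The CAST/EiJ mice had 9.51, 12.5, 0 and 21.1 CPM and the PWK/PhJ mice 0, 0, 12.1 and 24.5 CPM, all below the lowest mouse of 129S1/SvImJ, NZO/HlLtJ and NOD/ShiLtJ. The 129S1/SvImJ mice were close to each other at 58.0, 70.8, 78.9 and 62.7 CPM, while C57BL/6 ran from 11.04 to 196.7 CPM.

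C5ar1 followed another order. C57BL/6 had 31 counts and mice at 73.2, 55.2, 37.5 and 74.0 CPM, NOD/ShiLtJ had 22 counts, and CAST/EiJ had 16 counts and mice at 57.05, 74.8, 33.5 and 31.7 CPM. 129S1/SvImJ had 3 counts over its 4 mice, 0 to 9.86 CPM, and NZO/HlLtJ had 5 counts, 0 to 22.1 CPM. CAST/EiJ was low for C3ar1 and among the higher strains for C5ar1, and 129S1/SvImJ the reverse, with means of 10.8 and 49.3 CPM in CAST/EiJ and 67.6 and 6.02 CPM in 129S1/SvImJ. That difference in order was not tested. Among the same libraries, the astrocyte marker Slc1a3 was highest in 129S1/SvImJ and the endothelium marker Pecam1 in CAST/EiJ, NZO/HlLtJ and PWK/PhJ, as given above, and their part in these values was not tested.

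Without the low-count filter edgeR tested 20423 genes in macrophages and called 6.7% of them, among them C3ar1 (adjusted p = 4.49e-06) and C5ar1 (adjusted p = 9.10e-05). The same fit moved the adjusted p of C1qc from 0.00588 to 1.41e-10 and that of C1qb from 0.0465 to 2.40e-05. Its p-values were thus far lower on the same counts and cannot be set beside those of the filtered fit. In that fit C3ar1 was higher in C57BL/6 (log2 difference 1.20, SE 0.33, adjusted p = 0.0294) and in NOD/ShiLtJ (1.14, SE 0.32, adjusted p = 0.0316), where 0.94% and 0.95% of genes were called higher. It was lower in PWK/PhJ, at -2.16 (SE 0.54, adjusted p = 0.00351), where 1.12% of genes were called lower. C5ar1 was higher in C57BL/6, at 1.77 (SE 0.41, adjusted p = 0.00223). The C3ar1 contrast of C57BL/6 rested on its batch 3 mouse, which held 21 of the 40 counts at 196.7 CPM. Without that mouse the mean fell from 83.1 to 45.2 CPM, and the contrast was 0.53 with an edgeR adjusted p of 1. Leaving out each batch in turn from the unfiltered fit kept both receptors called for the strain term, but each of the 4 contrasts was lost in at least 2 of these 4 fits, with an adjusted p of up to 1 for C3ar1 in C57BL/6, 0.341 in NOD/ShiLtJ and 0.0982 in PWK/PhJ and of up to 0.192 for C5ar1 in C57BL/6. No contrast of CAST/EiJ or 129S1/SvImJ was called for either receptor in macrophages in any fit, and in the unfiltered one the edgeR adjusted p was 0.153 for C3ar1 and 0.129 for C5ar1 in CAST/EiJ and 0.390 and 0.295 in 129S1/SvImJ. The calls of the receptors in macrophages exist only in the unfiltered fit, apart from C3ar1, which passed the filter and was called when batch 1 or batch 2 was left out.

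**Figure D4:**
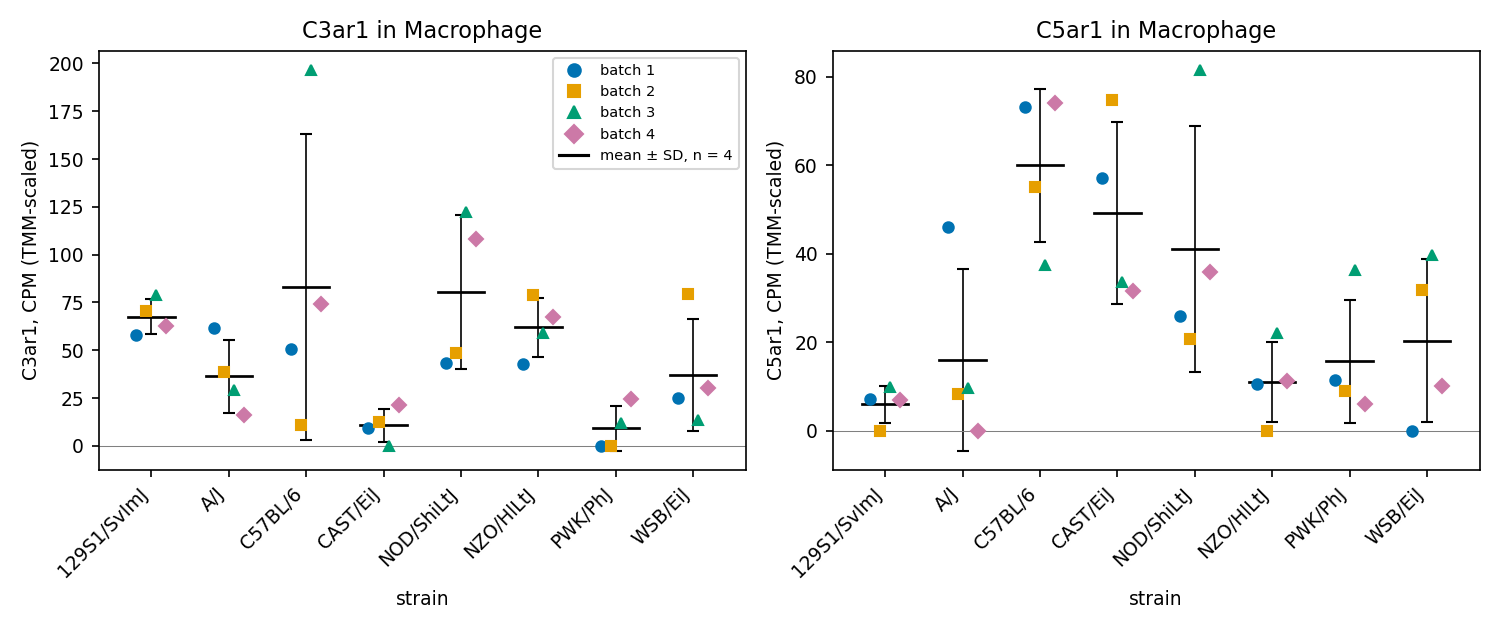
Levels of C3ar1 and C5ar1 in macrophages (vertical axes, TMM-scaled CPM) by strain; points are mice with a symbol per batch, and bars are the mean ± SD of 4 mice. C3ar1 is lowest in CAST/EiJ and PWK/PhJ (means 10.8 and 9.14 CPM), and C5ar1 is lowest in 129S1/SvImJ (6.02 CPM) and highest in C57BL/6 (59.95 CPM).

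C4b differed between strains in astrocytes. It was called at an adjusted p of 1.12e-11 by edgeR (F = 15.7), 1 of the 2 members tested, where 21.5% of 8207 genes were called, and C1qa had an adjusted p of 0.359. The NZO/HlLtJ mice had 168.6, 135.9, 156.3 and 178.3 CPM, a mean of 159.8 ± 18.3 CPM (SD, n = 4). The WSB/EiJ mice had 21.5, 25.2, 44.0 and 56.6 CPM, a mean of 36.8 ± 16.5 CPM, so these strains were far apart and their means differed 4.34-fold. Between them came NOD/ShiLtJ at 127.6 ± 50.0, PWK/PhJ at 121.7 ± 14.7, CAST/EiJ at 108.2 ± 59.9, A/J at 96.4 ± 17.6, C57BL/6 at 92.6 ± 17.2 and 129S1/SvImJ at 59.3 ± 16.6 CPM. The spread of CAST/EiJ came from its batch 3 mouse, at 22.4 CPM from 1 count in 38252.

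Against the mean of the other strains, C4b in astrocytes was lower in WSB/EiJ by edgeR, at -1.59 on the log2 scale (SE 0.21, adjusted p = 4.30e-09), where 1.33% of genes were called lower. It was higher in NZO/HlLtJ, at 0.88 (SE 0.15, adjusted p = 9.58e-06), where 2.97% were called higher. Weaker contrasts were called lower for 129S1/SvImJ (-0.70, adjusted p = 0.0292, background 0.67%) and higher for CAST/EiJ (0.49, adjusted p = 0.0372, background 4.75%) and NOD/ShiLtJ (0.50, adjusted p = 0.0495, background 2.75%). Each of these 3 was lost in 4 or 5 of 10 alternatives, with an adjusted p of up to 0.142 for 129S1/SvImJ, 0.246 for CAST/EiJ and 0.759 for NOD/ShiLtJ. The highest for NOD/ShiLtJ came without batch 1, whose NOD/ShiLtJ mouse had 202.3 CPM against 98.7 to 109 CPM in the other 3, and the contrast was then 0.19. The summed astrocyte markers Aqp4, Slc1a3, Slc1a2, Gfap and Aldh1l1 were between 8024 and 9977 CPM in the astrocytes of the 8 strains.

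In oligodendrocytes, the myelin-forming glia, the order of strains was another one and the range wider. C4b was the 1 member called of 3 tested, with an adjusted p of 2.92e-20 by edgeR (F = 30.9), where 34.8% of 9082 genes were called. C1qa and C1qb had adjusted p of 0.865 and 0.200. Outside NZO/HlLtJ and PWK/PhJ no mouse had more than 17.8 CPM of C4b, so C4b passed the low-count filter here largely through these strains. Its call is therefore not independent of their high levels. The NZO/HlLtJ mice had 92.1, 112.8, 43.7 and 33.5 CPM, and each of them was above every mouse of every other strain, of which the highest had 30.8 CPM. The A/J mice had 3.52, 3.73, 2.12 and 4.91 CPM from 14 counts in all. The mean of NZO/HlLtJ, 70.5 ± 38.0 CPM, was 19.8 times that of A/J, 3.57 ± 1.14 CPM (SD, n = 4), a ratio that rests on those few A/J counts.

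PWK/PhJ came after NZO/HlLtJ, with 21.6, 30.8, 23.7 and 24.9 CPM, all above the highest mouse of the 6 remaining strains. Those had means of 13.9 CPM in 129S1/SvImJ, 12.7 in C57BL/6, 10.9 in CAST/EiJ, 7.66 in NOD/ShiLtJ and 6.92 in WSB/EiJ, besides A/J. By contrast with the other 7 strains, C4b was higher in NZO/HlLtJ by 2.74 on the log2 scale (SE 0.21, edgeR adjusted p = 7.48e-21), where 5.01% of genes were called higher. It was lower in A/J at -2.08 (SE 0.36, adjusted p = 7.07e-06), where 2.84% were called lower, and higher in PWK/PhJ by 1.00 (SE 0.28, adjusted p = 0.00565), where 7.39% were called higher. The PWK/PhJ contrast was lost in 2 of 11 alternatives, with an adjusted p of up to 0.384.

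A C4b UMI was present in 9.44% of NZO/HlLtJ oligodendrocyte nuclei and in 0.666% of those of A/J. In the Drd1+ neurons of these strains it was present in 1.47% and 1.46% of nuclei at about 4 times the median depth. Per UMI, C4b in A/J was 3.57 ± 1.14 CPM in oligodendrocytes and 2.12 ± 0.625 CPM in Drd1+ neurons (SD, n = 4), and the part of free RNA in these low values was not tested. Astrocyte markers summed to between 579.2 and 802.8 CPM in the oligodendrocytes of the 8 strains, with 651.8 CPM in NZO/HlLtJ and 686.0 CPM in A/J. Among the 5224 oligodendrocyte nuclei without a UMI of any of the 5 astrocyte markers, a subset taken after the values had been seen, C4b had 130 counts, of which 51 were from NZO/HlLtJ. C4b did not pass the low-count filter in that subset. In the unfiltered edgeR fit it had an adjusted p of 4.13e-11, with NZO/HlLtJ highest and A/J lowest. These nuclei are part of the oligodendrocytes tested above, so this fit is not a separate test. Unfiltered p-values were also lower than filtered ones for C1qb and C1qc in macrophages, as given above.

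The strain pattern of C4b was tested for a difference between these glia. The interaction of strain and cluster, with the mouse as a block, gave C4b an edgeR adjusted p of 1.17e-11 (F = 15.1), where 11.6% of 9214 genes were called, and C1qa one of 0.869. The oligodendrocyte level was 3.81% of the astrocyte level in A/J, 6.37% in NOD/ShiLtJ and 9.12% in CAST/EiJ. It was 14.6% in C57BL/6, between 20.1% and 21.5% in WSB/EiJ, PWK/PhJ and 129S1/SvImJ, and 40.6% in NZO/HlLtJ. These are pooled values, and over single mice the share ran from 18.8% to 83.0% in NZO/HlLtJ, from 9.41% to 47.2% in WSB/EiJ and from 3.02% to 4.62% in A/J, so that the range of NZO/HlLtJ overlapped those of every strain except A/J and NOD/ShiLtJ, and the range of A/J overlapped that of NOD/ShiLtJ, 1.35% to 10.2%. A/J, with a middle level in astrocytes, thus had the lowest in oligodendrocytes, and WSB/EiJ, lowest in astrocytes, was 1 of several low strains in oligodendrocytes. Without the CAST/EiJ mouse of batch 3 the adjusted p of the interaction was 1.48e-11.

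**Figure D5:**
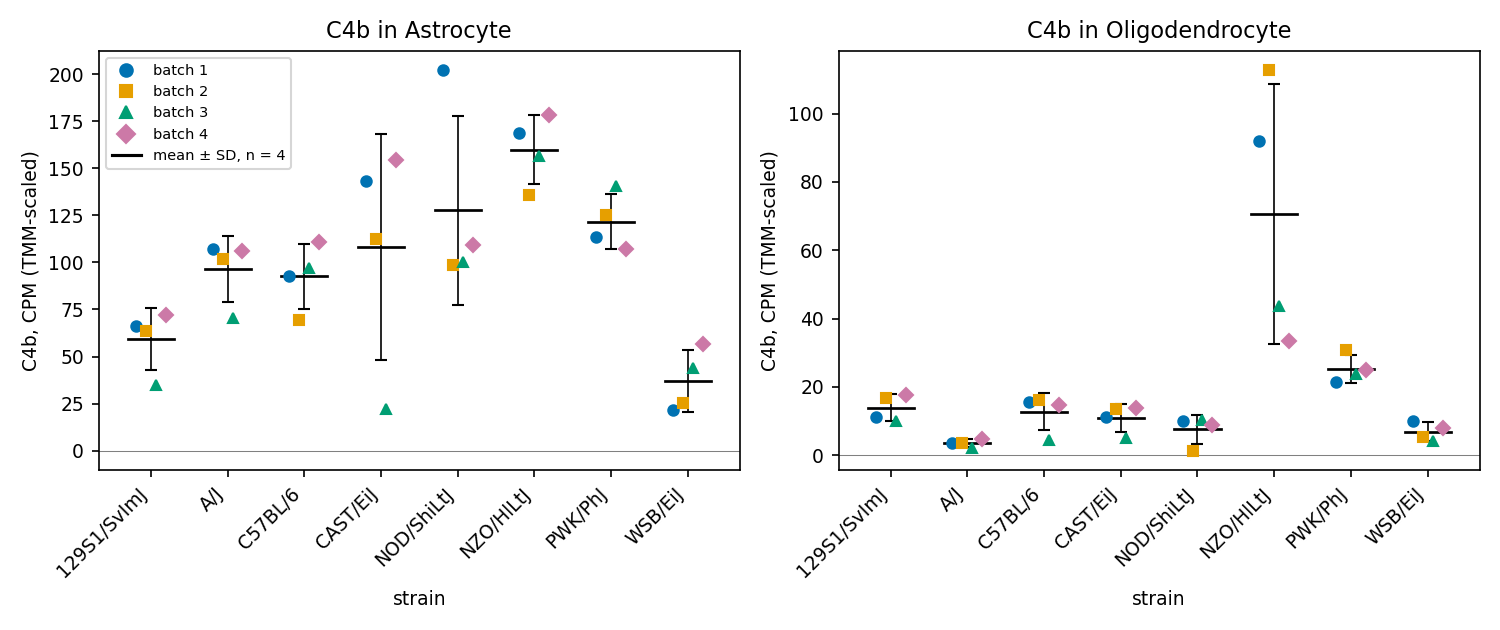
Levels of C4b in astrocytes and oligodendrocytes (vertical axes, TMM-scaled CPM) by strain; points are mice with a symbol per batch, and bars are the mean ± SD of 4 mice. NZO/HlLtJ is highest in both (159.8 and 70.5 CPM), WSB/EiJ is lowest in astrocytes (36.8 CPM) and A/J in oligodendrocytes (3.57 CPM).

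C4b was also called in Drd1+ neurons, at a low level. It was 1 of 4 members tested there that was called (edgeR adjusted p = 0.00126), where 61.7% of 13431 genes were called, so the share of members was below the background. CAST/EiJ mice had 4.99, 4.83, 3.22 and 4.47 CPM and C57BL/6 mice 0.880, 0.325, 0.816 and 1.29 CPM, without overlap. Outside CAST/EiJ no mouse was above 3.96 CPM, so C4b passed the low-count filter here largely through the CAST/EiJ mice. Its call is therefore not independent of that high level. The contrast was 1.24 for CAST/EiJ (SE 0.27, adjusted p = 3.54e-04), where 16.8% of genes were called higher, and -1.53 for C57BL/6 (SE 0.41, adjusted p = 0.00712), where 5.93% were called lower. The contrast of C57BL/6 was lost in 2 of 9 alternatives, with an adjusted p of up to 0.103. The summed C1q chains, which these neurons are not known to make, were also highest in the Drd1+ neurons of CAST/EiJ, at 14.9 CPM against 10.5 to 12.5 CPM in the other strains, and the part of free RNA in the C4b difference was not tested. In Drd2+ neurons, which carry the D2 dopamine receptor, 0 of 3 members were called by edgeR against 55.9% of 12799 genes. C4b had an unadjusted p of 0.0994 there, and none of the 3 was under 0.05. In the other clusters tested, Drd1+ neuron_2, endothelium, Nxph1+ interneurons and polydendrocytes, no member passed the low-count filter, and 17.3%, 3.23%, 1.53% and 1.24% of the genes tested were called.

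C4a, a near-identical neighbour of C4b, can share its reads, and the authors' counting could split them between these genes. It had 439 counts in all, against 2172 of C4b, with 11 counts in astrocytes and 21 in oligodendrocytes. C4a was highest in PWK/PhJ over all nuclei, at 4.97 ± 1.04 CPM, each mouse above all others, followed by WSB/EiJ at 2.61 ± 0.654 CPM, and lowest in A/J at 0.363 ± 0.281 CPM (SD, n = 4). In Drd1+ neurons the C4a means were 0.459 CPM for A/J and 5.87 CPM for PWK/PhJ (edgeR adjusted p = 3.03e-08). No mouse outside PWK/PhJ and WSB/EiJ was above 3.07 CPM in these neurons, so C4a passed the low-count filter largely through these strains. This call of C4a is therefore not independent of their high levels. Counts of C4a and C4b there were 74 and 29 in PWK/PhJ, 15 and 10 in C57BL/6 and 12 and 51 in CAST/EiJ. The part of a split of reads in the C4b difference of these neurons was not tested.

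Summed over all nuclei of a mouse, where fewer nuclei of a type and less RNA per nucleus cannot be told apart, 2 of 5 members tested were called by edgeR against 66.7% of 17176 genes. C4b (adjusted p = 1.67e-07) was highest in NZO/HlLtJ with 14.9 ± 4.02 CPM and lowest in WSB/EiJ with 4.38 ± 1.13 CPM (SD, n = 4). Its contrasts were 1.07 for NZO/HlLtJ (adjusted p = 5.73e-07, 12.2% of genes called higher), -0.98 for WSB/EiJ (adjusted p = 1.14e-04, 8.36% lower), 0.55 for CAST/EiJ (adjusted p = 0.00396, 18.6% higher) and -0.53 for 129S1/SvImJ (adjusted p = 0.0296, 5.83% lower). Of these, the contrast of 129S1/SvImJ was lost in 4 of 8 alternatives (adjusted p up to 0.151) and that of CAST/EiJ in 1 of 8, without batch 1 (adjusted p = 0.118). C3ar1 (adjusted p = 0.0130) was lower in CAST/EiJ, at -1.40 (adjusted p = 0.0279, 17.2% lower), and higher in NOD/ShiLtJ, at 0.93 (adjusted p = 0.0483, 11.4% higher), which were lost in 3 and 6 of 7 alternatives (adjusted p up to 0.112 and 0.155). The strain term of C3ar1 itself was lost without batch 1 (adjusted p = 0.0578) and without batch 3 (adjusted p = 0.114). Macrophages made up 3.11% ± 0.645 of the nuclei of CAST/EiJ mice and 5.83% ± 0.523 of those of PWK/PhJ mice (SD, n = 4), the lowest and highest means. C1qa, C1qb and C1qc had adjusted p of 0.0706, 0.228 and 0.173 over all nuclei.

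C3 could not be tested in ependyma, where 12 of the 32 mice had at least 10 nuclei, and is given as counts. CAST/EiJ had 18 counts in 32 nuclei and WSB/EiJ 19 counts in 37 nuclei, together 58.7% of the 63 counts with 18.7% of the ependymal UMIs. C57BL/6 had 6 counts in 60 nuclei, NZO/HlLtJ 8 counts in 104 nuclei, PWK/PhJ 5, NOD/ShiLtJ 3, and 129S1/SvImJ and A/J 2 each. A C3 UMI was present in 34.4% of the CAST/EiJ nuclei and 35.1% of the WSB/EiJ nuclei, against 3.85% to 9.09% in the other strains. In CPM of summed counts, C3 stood at 178.4 in CAST/EiJ and 153.8 in WSB/EiJ, and the highest of the others was 49.0 in PWK/PhJ. These values cover few nuclei per mouse, and intervals on them would cover counting error only.

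The rest of the complement system was taken from a list of 49 genes: proteases of the classical and lectin pathways, lectins, terminal components, regulators and further receptors. In macrophages 7 of them were tested and 4 called, 57.1% beside 24.8% of all genes, with a median F of 4.31 against 1.45 over all genes. Among those called were Csmd3 (9341 CPM in 129S1/SvImJ against 1781 CPM in PWK/PhJ), Colec12, a scavenger lectin (281.8 CPM in 129S1/SvImJ against 3.54 CPM in NOD/ShiLtJ), and the complement receptor chain Itgam (519.8 CPM in NZO/HlLtJ against 286.5 CPM in PWK/PhJ). Slc1a3, as given above, also had its highest macrophage mean in 129S1/SvImJ, the strain with the high values of Csmd3 and Colec12, and its part in them was not tested. In oligodendrocytes 7 of 11 were called, 63.6% beside 34.8% of all genes, with a median F of 4.55 against 1.75 over all genes. Masp1, a protease of the lectin pathway, led them with 93.95 CPM in PWK/PhJ and 1.80 CPM in CAST/EiJ, followed by the membrane regulators Cd59a and Cd55.

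In astrocytes 7 of 11 listed genes were called, 63.6% beside 21.5% of all genes, with a median F of 3.96 against 1.40. Csmd1, a membrane inhibitor of complement, had 2132 CPM in NZO/HlLtJ and 317.3 CPM in NOD/ShiLtJ, and Masp1 had 31.1 CPM in WSB/EiJ and 2.39 CPM in PWK/PhJ, the strain in which it was highest in oligodendrocytes. The interaction of strain and cluster was called for Masp1 (edgeR adjusted p = 1.54e-12), Csmd2 (9.35e-11) and Csmd1 (3.92e-05). In neurons 12 of 16 were called in both Drd1+ and Drd2+ nuclei, 75.0% beside 61.7% of all genes in Drd1+ neurons and 55.9% in Drd2+ neurons. Cd59a, which blocks the membrane attack complex, had the highest F there, with 52.5 CPM in WSB/EiJ and 3.72 CPM in PWK/PhJ in Drd1+ neurons. Over all nuclei 17 of 27 were called, 63.0% beside 66.7%. Gene pairs such as Cd59a and Cd59b are close copies, whose reads the authors' counting could split.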

How the data were processed

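Nuclei of the striatum of 32 mice were profiled in 4 pooled batches, and the open-chromatin index was used for positions alone. The deposited matrices hold raw UMI counts per gene and nucleus, made by the authors with Cell Ranger ARC 2.0.0 after bcl2fastq 2.20.0.422 on mm10 (GRCm38), per the submitters' processing notes. The deposited table of nuclei gives other values, namely strain, filter and cluster calls. Reads of all strains were counted on the same reference, and the part of strain variants in the strain differences was not tested. Per the labels, the authors assigned strains with Demuxlet from RNA and ATAC reads, filtered nuclei, and removed doublets with DoubletFinder, and of 89339 barcodes 55672 nuclei were annotated and used here with no further filter on cells.

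Counts were summed per mouse (batch and strain) and cluster. Libraries of at least 10 nuclei were used, and the 9 of 18 clusters with at least 3 such mice of every strain were tested, besides the sum over all nuclei. edgeR 4.0.16 (R 4.3.3) fitted strain and batch (TMM scaling, filterByExpr by strain, robust quasi-likelihood), and calls were made at adjusted p below 0.05. The low-count filter asks for enough counts in about as many mice as 1 strain has, so a gene can be tested because 1 strain is high. Printed levels of mice are TMM-scaled CPM. Contrasts set 1 strain against the average of the remaining 7, and their SE follows from the fold change and its F. Batch is a block from the labels, since each batch is a shared pool of 1 mouse of every strain. Deviations of macrophage libraries of the same batch correlated by 0.0560, 0.117, 0.169 and 0.00681 on average in batches 1 to 4, against -0.0286 for other pairs. DESeq2 1.42.0, other scaling, no filter, no block, deeper nuclei and each batch left out were the alternatives. The fits were also run on simulated counts drawn without a batch effect, which give no measure of the calls under the shift of batch 3. Levels across clusters carry no test, because the clusters were formed from the same nuclei. Ratios used an offset of 0.5 counts. Python 3.11.15, numpy 2.4.6, scipy 1.17.1, pandas 2.3.3 and matplotlib 3.10.9 were used.

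Members, gene lists and tests were chosen with earlier results of these data known. All 7 members and all called genes of the other list, at most 5 per fit by F, were to be named, with the 3 genes most like each member, and some of these are not reported here. CPM are not per length, so levels of different genes are not compared as molecules. Cell type markers were listed for macrophages, border-associated macrophages, astrocytes, oligodendrocytes, precursors, endothelium, mural cells, fibroblasts, neurons, projection neurons and cholinergic neurons. A few read counts in nuclei of other types can come from free RNA, which a pool shares between strains.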

Additional observations from a re-analysis of the deposited data

Results flagged for a closer look

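Of 104 groups of 4 mice of a strain, 14 held a mouse far from the other 3, where chance gives about 1 in 20 independent groups. These groups were not independent, since they reuse the same mice for several genes and macrophages are part of all nuclei. Most of the flagged mice were of batch 3, so the count cannot be read as an excess of single outliers. In macrophages, C1qa was high in batch 3 in CAST/EiJ (2011 CPM from 60 counts, others 1017 to 1146) and in NZO/HlLtJ (3048 CPM, others 632.1 to 1034), and C1qb was high in the same NZO/HlLtJ mouse (1973 CPM, others 714.1 to 909.8). For C4b in astrocytes the A/J mouse of batch 3 was low (70.26 CPM, others 101.9 to 107.3) and the NOD/ShiLtJ mouse of batch 1 was high (202.3 CPM, others 98.73 to 109.0). For C4b in oligodendrocytes the C57BL/6 mouse of batch 3 was low (4.61 CPM from 2 counts, others 14.72 to 16.04), as was the NOD/ShiLtJ mouse of batch 2 (1.337 CPM from 1 count, others 8.892 to 10.27).

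Over all nuclei, the batch 3 mouse of NOD/ShiLtJ was high for C1qa (122.6 CPM, others 18.53 to 31.83) and C1qc (47.87 CPM, others 7.822 to 13.24). The batch 3 mouse of NZO/HlLtJ was high for C1qa (57.52 CPM, others 16.81 to 17.83) and C1qb (37.81 CPM, others 12.12 to 15.27). C3ar1 was high in the 129S1/SvImJ mouse of batch 3 (2.055 CPM, others 1.524 to 1.562), the CAST/EiJ mouse of batch 4 (0.925 CPM from 6 counts, others 0.244 to 0.3347) and the PWK/PhJ mouse of batch 4 (1.381 CPM, others 0.6425 to 0.7538).

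The strain differences of C4b differed between astrocytes and oligodendrocytes, with an edgeR adjusted p of 1.165e-11 for the interaction.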

How the results depend on the processing

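Across alternatives, C4b kept its call and direction in astrocytes (adjusted p up to 2.77e-07), oligodendrocytes (up to 4.13e-11), Drd1+ neurons (up to 0.0436), all nuclei (up to 1.60e-04) and the interaction (up to 1.96e-05), and the 3 ratios of C1q chains kept their call (up to 0.0129), although the strains with the highest and lowest ratio changed in some, so that without replicate 1 C1qb over C1qa was lowest in A/J and C1qc over C1qa highest in NZO/HlLtJ. In macrophages the 2 members called became 5 without the low-count filter, 0 with no replicate block and 1 with nuclei of at least 1000 UMIs, and 1 to 3 without each replicate. The 1 contrast called there became, over C1qb and C1qc, 6 without the filter, 0 with no replicate block, and 0 to 6 without each replicate. Over all nuclei the 2 members called became 1 without the macrophages and 1 to 4 without each replicate, and the 6 contrasts 2 to 6. Without macrophages, the log2 difference between the strains highest and lowest over all nuclei reversed for C1qb (-0.098, adjusted p = 0.589), C1qc (-0.129, adjusted p = 0.377) and C1qa (-0.086, adjusted p = 0.644), none of them called before or after. In astrocytes the 5 contrasts became 2 with no replicate block and 2 to 3 without each replicate, in Drd1+ neurons the 2 became 1 to 2, and in Drd2+ neurons 0 members became 0 to 1. Thinning nuclei to 500 UMIs lowered the share with a UMI to 42.11% for C1qa, 31.85% for C1qb and 27.57% for C1qc in macrophages and to 4.811% for C4b in astrocytes. The other causes were not tested. Of single members and contrasts, 312 values kept their side of the threshold, 53 were lost, 8 gained and 3 reversed. Genes called in astrocytes numbered 1767, and 1138 without batch 2. C3ar1 and C5ar1 were too low in counts for the filter in macrophages, and too few mice had 10 ependyma nuclei to test C3. The ratios of C1q chains, the fit without the CAST/EiJ mouse of batch 3 the fits of oligodendrocyte nuclei without astrocyte markers and the unfiltered macrophage fits without a batch or the C57BL/6 mouse of batch 3 were chosen after seeing the data.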
